A study of Mus musculus with 24 samples.

Results

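The cadherins, catenins and nectins are the transmembrane receptors of the adherens junction and the proteins that tie the cadherins to actin. The 10 genes described here, 3 cadherins (Cdh1, Cdh3 and Cdh26), 3 catenins (Ctnna1, Ctnnb1 and Ctnnd1) and 4 nectins (Nectin1 to Nectin4), were chosen by symbol from the 25239 genes of the deposited expression table. RNA was sequenced from primary tracheal epithelial cells of 7 to 8 week old FVB/NJ mice, wild-type, grown into a layered epithelium at an air-liquid interface over 10 to 14 days. Inserts then received 10 days of cigarette smoke (2 cigarettes burned over about 8 minutes in an exposure) or of humidified air, which gave 6 inserts each of female smoke, female air, male smoke and male air. The labels do not say how many animals gave the cells or whether cells were pooled, so p-values measure the spread between inserts, which may be technical, and a difference between the sexes includes any other difference between their cell preparations.

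Cadherins join like to like across neighbouring cells, and their cytoplasmic tails hold beta-catenin and p120-catenin, with alpha-catenin linking the complex to actin. Nectins are immunoglobulin-like receptors that start the contact, bind each other or a partner nectin across the gap, and reach actin through afadin. Beta-catenin also carries the Wnt signal in the nucleus, and in airway epithelium these junctions keep the layer sealed and polarised.

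Genes were tested where their normalised count averaged 10 or more, which left 13549 with all 10 members among them, and 34.8% of these passed the test for smoke against air in female cells (limma, Benjamini-Hochberg adjusted p under 0.05). Of the members, 3 of 10 passed there: Cdh26 and Nectin3 fell and Nectin2 rose, against 19.3% of all genes that fell and 15.5% that rose. In male cells 2 of 10 passed, Nectin3 lower and Nectin2 higher, against 22.0% of all genes, with 12.2% lower and 9.76% higher. The other 7 members in female cells and the other 8 in male cells did not pass, among them E-cadherin and all 3 catenins. The smoke response differed between the sexes for 0 of 10 members by limma, 0 by edgeR and 0 by DESeq2, against 1.03% of all genes by limma, and for 0 of 10 at an unadjusted p under 0.05. In air, 4 of 10 members differed between female and male cells, against 39.0% of all genes: Cdh26, Nectin1 and Nectin4 were higher in female cells, as were 20.0% of all genes, and Nectin3 was lower, as were 19.0%.

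In 1 respect that touches these values, 2 of the 24 libraries stood apart. Female air insert 1 and female smoke insert 4 followed transcript length: the deviation of a gene from its group median had a Spearman correlation of -0.670 with transcript length in female air insert 1 and -0.432 in female smoke insert 4, against -0.141 to 0.334 in the other 22 libraries. In female air insert 1, 4967 genes lay over 2-fold from the group median, in female smoke insert 4 3000 genes, and in each of the other 22 at most 1164. Member results are given with and without these 2 libraries where that changed a call or its size. Without them 3 of 10 members passed in female smoke against air (45.7% of all genes), 5 in male smoke against air (47.2%), 0 in the difference between the sexes in response (6.20%) and 6 between the sexes in air (55.8%). A further split ran within the air groups, between inserts 1 to 3 and inserts 4 to 6. In male air Cdh26 had 54.1 to 63.2 normalised counts in inserts 1 to 3 and 22.9 to 27.0 in inserts 4 to 6. Cdh1 there had 19282 to 20425 and 21415 to 22540. In female air Cdh26 had 1178 to 1993 and 646 to 1023, and Cdh3 715 to 1330 and 2060 to 2398. Some members overlapped between these sets, such as Cdh3 in male air, and the source of the split was not tested. Depth, recovered for 23 libraries, was 16038813 to 24485024 reads on genes. Epithelial markers were present in all groups, with summed basal cell genes of 136237 to 426106 normalised counts over all libraries, whereas the leukocyte gene Ptprc and the endothelial genes Cdh5 and Kdr stayed under 10 normalised counts on average in each group. Other genes on these lists were detected. Of the 8 leukocyte genes, 3 averaged 10 or more in female smoke and 4 in each of the other groups. Ptprc, Adgre1, Cd3e and Cd79a averaged under 10 in all groups. Lyz2, a lysozyme gene on that list, averaged 20565 in female smoke, 65401 in female air, 25843 in male smoke and 34098 in male air. Itgam averaged 2207, 1206, 203 and 32.1 in the same order, and Cd68 229, 130, 362 and 129. The summed endothelial genes ran over 4.56 to 23.96 in female smoke, 22.9 to 54.6 in female air, 7.77 to 49.9 in male smoke and 4.73 to 34.3 in male air. Of 10 basal cell genes 1 rose and 1 fell with smoke in female cells and 3 rose and 2 fell in male cells, of 4 tested leukocyte genes 1 rose and 2 fell in female cells and 2 rose in male cells, and the 1 tested endothelial gene fell in female cells and did not pass in male cells (log2 fold change -0.58). Over all genes 15.5% rose and 19.3% fell in female cells, and 9.76% rose and 12.2% fell in male cells. The part of these cell types in the results on the members was not tested.

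Where the members move, their upstream sequence is shown for Cdh26 and Nectin3, which fell with smoke, for Nectin2, which rose, and for Nectin4, which separated the sexes in air. Each line holds the 250 bases before the annotated start, 5′ to 3′ on the gene's strand, from RefSeq on GRCm38.p6, which is not the FVB/NJ genome. Capitals mark 3 motifs searched on both strands: CAGGTG, an E-box read by the Snail and Zeb repressors of Cdh1, GCGTG, the core of the dioxin response element, and TGACNNNGC, the antioxidant response element. They occur in 17.2%, 28.2% and 10.2% of all 32851 promoter windows of this length.
Cdh26: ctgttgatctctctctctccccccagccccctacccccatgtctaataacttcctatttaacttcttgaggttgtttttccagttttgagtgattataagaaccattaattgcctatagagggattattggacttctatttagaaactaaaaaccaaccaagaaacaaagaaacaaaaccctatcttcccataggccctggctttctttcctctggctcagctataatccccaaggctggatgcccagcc
Nectin2: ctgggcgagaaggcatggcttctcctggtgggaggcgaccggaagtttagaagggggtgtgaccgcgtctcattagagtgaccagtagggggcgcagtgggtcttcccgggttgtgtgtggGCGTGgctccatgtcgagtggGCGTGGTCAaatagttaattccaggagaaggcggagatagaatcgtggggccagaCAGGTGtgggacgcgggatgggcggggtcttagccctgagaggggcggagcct
Nectin3: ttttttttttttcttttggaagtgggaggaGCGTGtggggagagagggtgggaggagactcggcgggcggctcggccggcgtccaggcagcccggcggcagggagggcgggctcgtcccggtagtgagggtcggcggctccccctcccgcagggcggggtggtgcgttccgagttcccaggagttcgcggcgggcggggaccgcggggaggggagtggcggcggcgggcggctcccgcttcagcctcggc
Nectin4: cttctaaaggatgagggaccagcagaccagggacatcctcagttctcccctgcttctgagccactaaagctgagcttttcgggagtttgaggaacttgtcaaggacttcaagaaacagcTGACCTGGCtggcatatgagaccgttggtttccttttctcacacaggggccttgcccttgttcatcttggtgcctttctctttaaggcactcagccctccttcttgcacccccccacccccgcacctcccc
The Cdh26 window (chr2:178430265-178430514, plus strand) holds none of the 3 motifs. The Nectin2 window (chr7:19749574-19749823, minus strand) holds 1 CAGGTG, 2 GCGTG and 1 TGACNNNGC on the other strand, which overlaps a GCGTG. The Nectin3 window (chr16:46496968-46497217, minus strand) holds 1 GCGTG, and the Nectin4 window (chr1:171369923-171370172, plus strand) 1 TGACNNNGC. A match is only a run of letters, and no match says nothing about a factor's binding. Of the 10 members 6 had an entry, while Cdh1, Cdh3, Ctnna1 and Nectin1 had none. The entries of Ctnnb1 and Ctnnd1, which did not pass for smoke with all libraries, are not shown but held motifs too. The 2 overlapping windows of Ctnnb1 each held 1 GCGTG, and 1 of them also 1 TGACNNNGC. Of the 2 windows of Ctnnd1, 1 held 1 GCGTG and the other none of the 3 motifs.

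**Figure D1:**
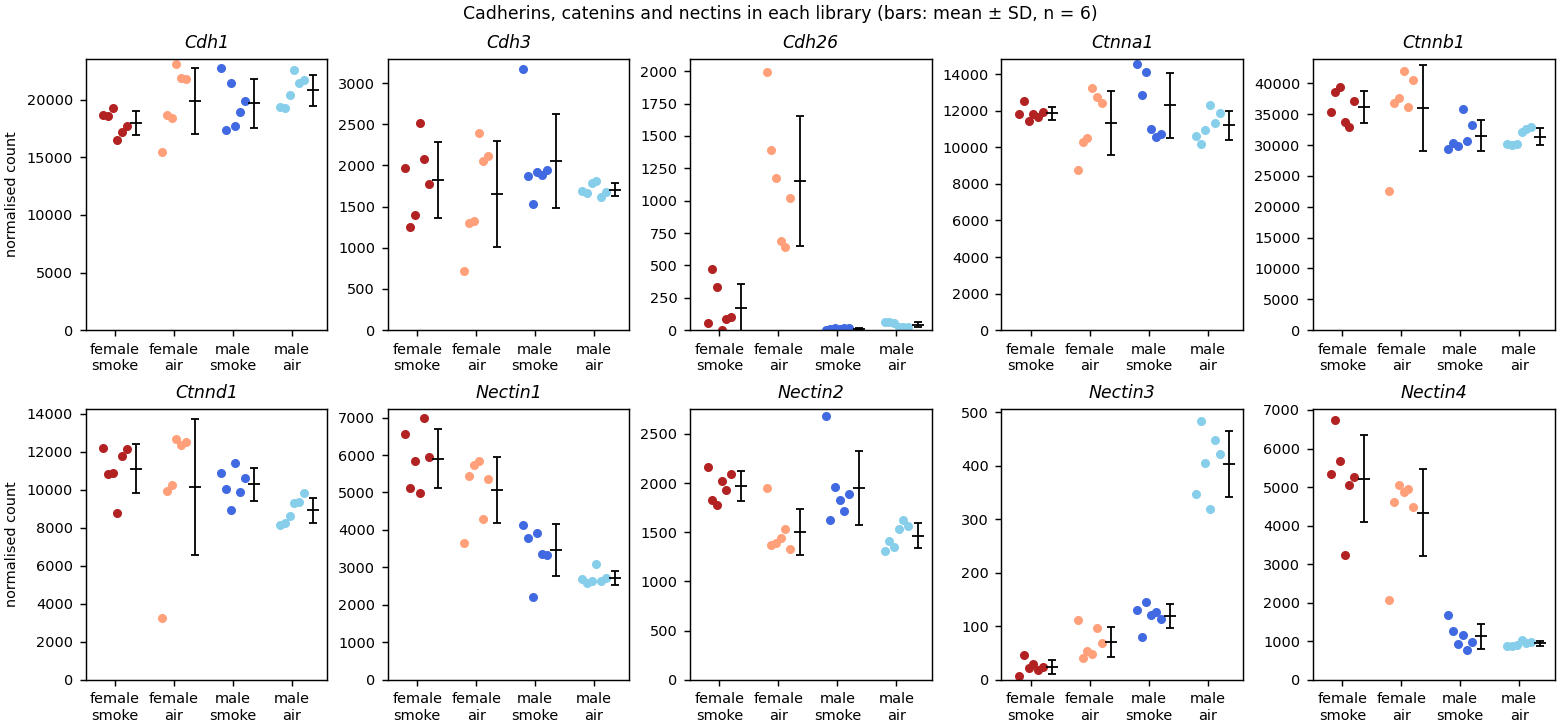
Normalised counts of the 10 members (vertical axes from 0) in the 6 inserts of each of the 4 groups, with the group mean ± SD beside the points (n = 6; the lower bar of Cdh26 in female smoke runs below the axis). Cdh26 sits between 0 and 470.2 in female smoke against 646 to 1993 in female air, and Nectin3 between 79.2 and 146 in male smoke against 318 to 483 in male air.

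E-cadherin, encoded by Cdh1, is the main cadherin of epithelia. Cdh1 had 16493, 18127 and 19269 normalised counts (lowest, median and highest) in female smoke, against 15436, 20254 and 23134 in female air. Its male smoke values were 17334, 19398 and 22746.5, against 19282, 20919.9 and 22540.4 in male air. The groups overlapped in both sexes. The log2 fold change was -0.13 in female cells (95% interval -0.35 to 0.08, adjusted p = 0.349) and -0.08 in male cells (-0.30 to 0.13, adjusted p = 0.612). A fall of more than 0.35 on the log2 scale lay outside both intervals, which rest on all 24 libraries. The value depended on the inserts used. Inserts 4 to 6 alone gave -0.38 in female and -0.22 in male cells, and inserts 1 to 3 alone 0.11 and 0.050.

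P-cadherin, encoded by Cdh3, is typical of basal cells, and its gene lies next to Cdh1 on chromosome 8 with 46438 bases between them. Cdh3 had 1251, 1869.7 and 2510.1 normalised counts in female smoke, against 715, 1695 and 2398 in female air. In male smoke it had 1534, 1904 and 3169, against 1614, 1683 and 1811 in male air. The groups overlapped, and the lowest female air value was that of insert 1, which followed transcript length. The log2 fold change was 0.22 in female cells (-0.25 to 0.69, adjusted p = 0.502) and 0.23 in male cells (-0.24 to 0.70, adjusted p = 0.504). Without the 2 libraries the female value was -0.10 (-0.48 to 0.28), so its direction rested on them.

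Cdh26 (chr2:178430515-178487366, mm10) encodes an atypical cadherin known from human allergic airway and oesophageal epithelium. It had 0, 91.9 and 470.2 normalised counts in female smoke, against 646, 1100.4 and 1993 in female air. The male smoke inserts had 2.65, 13.5 and 19.8, against 22.9, 40.6 and 63.2 in male air. The smoke and air groups did not overlap in either sex, and in air every male insert lay below every female one. Under smoke the sexes overlapped, because female smoke insert 4 was at 0, and their difference there was not tested. Groups did not overlap for 1 of 10 members in female cells (12.5% of all genes) and for 2 of 10 in male cells (25.2%), Cdh26 being the gene in both and Nectin3 the second in males.

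In female cells Cdh26 fell by 4.02 ± 0.94 on the log2 scale (SE, n = 6 per group, adjusted p = 0.0024). In male cells the log2 fold change was -1.80 ± 0.94 (-3.74 to 0.13, adjusted p = 0.174). The size in female cells rested on 1 library: female smoke insert 4 held no read of Cdh26, and without it the fold change was -2.81. It was -2.63 without both length-biased libraries, -2.73 with edgeR, -2.73 with DESeq2 on recovered reads and -1.95 in the authors' deposited table. Without those 2 libraries the male decrease also passed the test, at the same -1.80 ± 0.50, since the spread pooled over all groups was smaller. The female response minus the male response was -2.22 (-4.95 to 0.52, adjusted p = 0.524) with all libraries and -0.83 (-2.37 to 0.71) without the 2.

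Genes of ciliated cells moved with Cdh26. Of 12 listed ciliated cell genes, 12 fell with smoke in female cells and 2 in male cells, against 19.3% and 12.2% of all genes. Leaving out the 2 length-biased libraries, 7 of the 12 fell in male cells, where 47.2% of all genes were called in either direction. With all libraries the listed genes had a median log2 fold change of -2.71 in female cells and -1.26 in male cells. The medians over all genes were -0.0026 and -0.0058. Without those 2 libraries the median in female cells was -1.70, and all 12 were still called lower. Their summed level ran over 285 to 13433 normalised counts in female smoke, against 13206 to 25744 in female air. In male smoke it ran over 405 to 5113, against 4158 to 7767 in male air. None of the 12 was at 0 throughout a group, and Mcidas, a regulator of multiciliated cell formation, averaged under 10 in male smoke. In bulk RNA, fewer cells of a type and less RNA per cell cannot be told apart, and the part of ciliated cells in the fall of Cdh26 was not tested.

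As a description chosen after the values were seen, Cdh26 was divided by that sum. Per 100 normalised counts of the ciliated genes, Cdh26 had a median of 2.35 (0 to 3.50) in female smoke, against 5.42 (3.21 to 9.94) in female air. In male smoke the median was 0.476 (0.182 to 0.728), against 0.718 (0.455 to 0.853) in male air. The ranges overlapped in both sexes between smoke and air, but not between the sexes in air, where every female ratio lay above every male one.

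**Figure D2:**
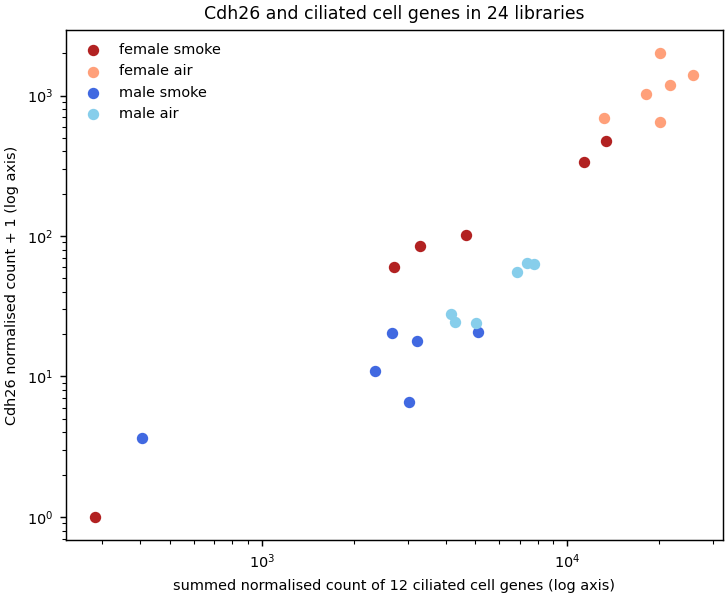
Cdh26 normalised count plus 1 (vertical log axis) against the summed normalised count of 12 ciliated cell genes (horizontal log axis), 1 point per library, coloured by group. Female smoke insert 4, with 0 counts of Cdh26, is at the lower left with the lowest sum, 285, and the female air libraries lie at the upper right.

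Over the 24 libraries the genes whose log2 levels followed Cdh26 most closely were Ccdc60 (Pearson r = 0.98), Ccdc87 (0.97), Scrn1 (0.96), Armc3 (0.96) and Pklr (0.96), out of 11497 genes searched. These are descriptions over libraries that share groups and length bias. Ccdc60 had 0 to 121 normalised counts in female smoke, against 95.9 to 259.8 in female air, and 3.53 to 7.92 in male smoke, against 8.77 to 30.04 in male air.

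None of the 3 catenins passed the test for smoke. Ctnnb1, beta-catenin, had 32882, 36269 and 39392 normalised counts in female smoke, against 22523, 37225 and 42006 in female air, and its log2 fold change was 0.034 (-0.23 to 0.30, adjusted p = 0.87). In male smoke it had 29345, 30493 and 35789.9, against 30080.3, 31192 and 32990.4 in male air, a log2 fold change of 0.0054 (-0.26 to 0.27, adjusted p = 0.982). The groups overlapped in both sexes, and the lone low female value was again air insert 1. Ctnna1, alpha-catenin, had 11459.8, 11817 and 12509 in female smoke, against 8763, 11482 and 13255 in female air, and 10564, 11914 and 14540.1 in male smoke, against 10159.5, 11137 and 12311 in male air. Its log2 fold changes were 0.08 (-0.14 to 0.30, adjusted p = 0.604) and 0.12 (-0.09 to 0.34, adjusted p = 0.429) in female and male cells, with groups that overlapped.

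Ctnnd1, p120-catenin, holds cadherins at the cell surface. It had 8762, 11333 and 12209 normalised counts in female smoke, against 3241, 11281 and 12665 in female air. Male smoke inserts had 8948, 10329 and 11393, against 8160.4, 8955 and 9800.3 in male air. The groups overlapped. The log2 fold change was 0.25 (-0.21 to 0.71, adjusted p = 0.417) in female cells and 0.21 (-0.25 to 0.66, adjusted p = 0.546) in male cells. Without the 2 length-biased libraries it was 0.011 (-0.16 to 0.18) in female cells, while in male cells the same 0.21 (0.05 to 0.36) passed the test.

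**Figure D3:**
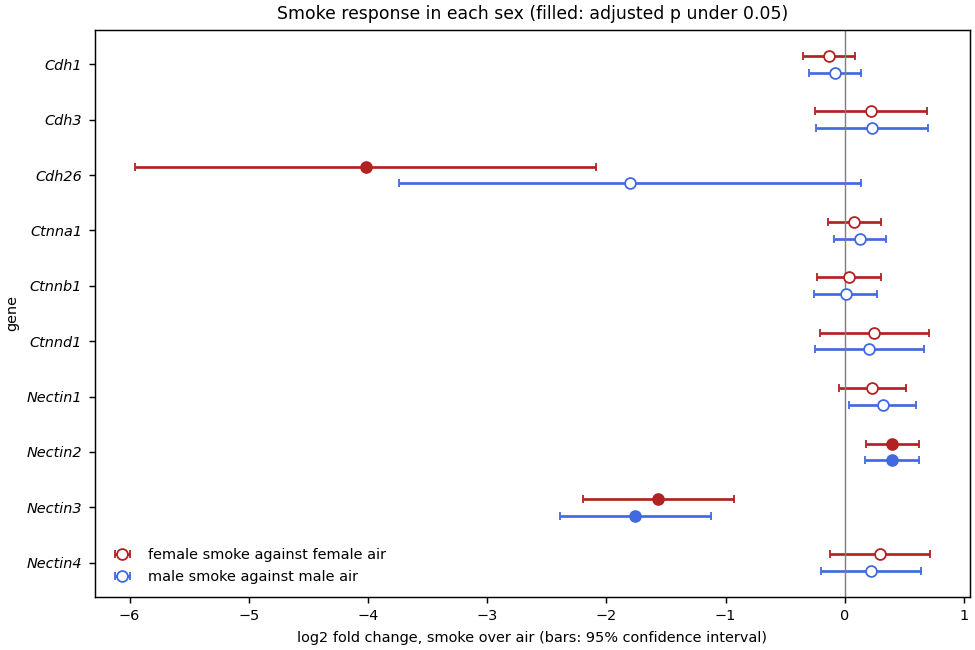
Log2 fold change of smoke over air (horizontal axis) for each member, female above male, with 95% confidence intervals (limma, 24 libraries); filled points passed an adjusted p under 0.05. Nectin2 lies at 0.40 in both sexes, Nectin3 at -1.57 and -1.76, and Cdh26 reaches -4.02 in female cells with the widest intervals.

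Among the nectins, Nectin3 fell in both sexes. Nectin3 (chr16:46394858-46496967, minus strand, mm10) encodes a nectin that binds Nectin1 across the cell contact. It had 7.05, 23.1 and 45.9 normalised counts in female smoke, against 39.7, 61.9 and 111 in female air. Male smoke inserts had 79.2, 124 and 146, against 318, 413 and 483 in male air. The male groups did not overlap, and in female cells smoke insert 2 alone reached into the air range. The log2 fold change was -1.57 ± 0.31 in female cells (SE, adjusted p = 0.00061) and -1.76 ± 0.31 in male cells (adjusted p = 0.000301), and the responses of the sexes differed by 0.19 (-0.70 to 1.09, adjusted p = 0.92). Without the 2 length-biased libraries the female value was -1.51 and the male value -1.76, and both passed.

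Secretory cell genes moved in the same direction as Nectin3. Of 8 tested secretory cell genes, 4 fell in female cells and 3 in male cells, against 19.3% and 12.2% of all genes. Their list had median log2 fold changes of -1.39 and -1.35. Without the 2 length-biased libraries 4 fell in each sex, and the medians were -0.67 in female cells and -1.35 in male cells. There 45.7% of all genes were called in either direction in female cells and 47.2% in male cells. The sum over the 9 listed genes was 27668 to 143158 normalised counts in female smoke, against 146743 to 373692 in female air, and 74788 to 255686 in male smoke, against 391124 to 671962 in male air. No listed gene was at 0 throughout a group, and the goblet cell mucin Muc5ac averaged under 10 outside male smoke. The part of secretory cells in the fall of Nectin3 was not tested. The levels most like Nectin3 over the 24 libraries were those of Fam3c (Pearson r = 0.95), Adamts5 (0.93), Sphk1 (0.93), Cyp4b1 (0.93) and Dnajb5 (0.93). Cyp4b1, a cytochrome P450 of airway epithelium, had 317 to 1861 normalised counts in female smoke, against 1484 to 6627 in female air, and 2409.8 to 7255 in male smoke, against 18365 to 25446 in male air.

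Nectin2 (chr7:19716644-19749573, minus strand, mm10), in humans also a ligand of the lymphocyte receptors DNAM-1 and TIGIT, rose in both sexes. It had 1776, 1973 and 2166 normalised counts in female smoke, against 1332, 1413 and 1952 in female air. In male smoke it had 1622, 1859.8 and 2686, against 1313, 1469 and 1628 in male air. In female cells the overlap came from air insert 1 alone, since the other air inserts reached 1536 at most. In male cells the lowest smoke insert, at 1622, lay just under the highest air insert. The log2 fold change was 0.40 ± 0.11 in female cells (SE, adjusted p = 0.00705) and 0.40 ± 0.11 in male cells (adjusted p = 0.0112), and the female response minus the male response was 0.00072 (-0.32 to 0.32). Without the 2 length-biased libraries the values were 0.47 and 0.40, and both passed.

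Squamous cell genes moved in the same direction as Nectin2. Of 10 listed genes, 8 rose in female cells and 9 in male cells, against 15.5% and 9.76% of all genes. The 10 listed genes had median log2 fold changes of 3.65 and 2.95. Their sum was 307661 to 424759 normalised counts in female smoke, against 138102 to 286121 in female air, and 22871 to 58123 in male smoke, against 5948 to 12246 in male air. Sprr2d was at 0 in all male air libraries. The part of squamous cells in the rise of Nectin2 was not tested.

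Nectin1 and Nectin4 did not pass the test for smoke. Nectin1, the partner of Nectin3 and a herpes simplex virus receptor, had 4983, 5881 and 6998 normalised counts in female smoke, against 3649.85, 5406 and 5843 in female air. Male smoke values were 2202, 3579 and 4128, against 2591, 2661 and 3096 in male air. The groups overlapped, with 5 of 6 male smoke inserts above all male air inserts. The log2 fold change was 0.23 (-0.05 to 0.51, adjusted p = 0.199) in female cells and 0.32 (0.03 to 0.60, adjusted p = 0.1) in male cells, where it passed without the 2 length-biased libraries. Nectin4, the epithelial receptor of measles virus in humans, had 3239, 5308 and 6736 in female smoke, against 2058, 4735 and 5059 in female air, and 771, 1068 and 1685 in male smoke, against 880.5, 926 and 1039 in male air. The groups overlapped, and its log2 fold change was 0.29 (-0.12 to 0.71, adjusted p = 0.278) in female cells and 0.22 (-0.20 to 0.64, adjusted p = 0.469) in male cells.

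The authors' deposited tables, given separately for each comparison, had the same sign as above for 10 of 10 members in each comparison. They called 3 members in female cells, the same as here, against 27.3% of the genes given an adjusted p there, 4 between the sexes in air, against 36.6%, and 5 in male cells, against 42.1%, where Cdh26 (-1.35), Ctnnd1 (0.22) and Nectin1 (0.35) stood beside Nectin2 (0.42) and Nectin3 (-1.69), all as log2 fold changes of smoke over air with the deposited sign turned. Over the 10 members the median log2 fold change here was 0.15 in female cells and 0.17 in male cells, beside -0.0026 and -0.0058 over all genes. Without the 2 length-biased libraries the member median was -0.033 in female cells and 0.17 in male cells, so the female direction rested on them. The female call for all 3 members was lost when only inserts 1 to 3 of each group were used, and the male call of Nectin2 with inserts 1 to 3 or 4 to 6 alone.

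In air, Cdh26 and 3 of the 4 nectins differed between the sexes, and Nectin2, at 1332 to 1952 normalised counts in female air against 1313 to 1628 in male air, did not pass. Groups did not overlap for 4 of 10 members, against 33.2% of all genes, and these were the same 4 that passed the test. Cdh26 was higher in female air by 4.77 ± 0.94 on the log2 scale (SE, adjusted p = 0.000293), with 646 to 1993 normalised counts in female air against 22.9 to 63.2 in male air. Nectin4 was higher in female air by 2.15 ± 0.20 (adjusted p = 1.29e-08) and Nectin1 by 0.87 ± 0.14 (adjusted p = 2.11e-05). Nectin3 ran the other way, at -2.59 ± 0.31 in female air relative to male air (adjusted p = 4.27e-07). Without the 2 length-biased libraries the values were 4.59 for Cdh26, 2.35 for Nectin4, 0.96 for Nectin1 and -2.74 for Nectin3, and all 4 passed.

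The ciliated cell genes also differed between the sexes in air. Of the 12, 4 were called higher in female air and 11 without the 2 length-biased libraries, with a median log2 fold change of 1.90 beside 0.02 over all genes. With all libraries 20.0% of all genes were called higher in female air and 19.0% lower. Leaving out the 2, 55.8% were called in either direction. Of 8 secretory cell genes 2 were higher and 3 lower in female air, and of 10 squamous cell genes 6 were higher. Without the 2 libraries 1 secretory gene was higher and 5 were lower, and 7 squamous genes were higher. Their part in the sex differences of the members was not tested. Without the 2 length-biased libraries, Ctnnb1 (0.30) and Ctnnd1 (0.37) were also called higher in female air, against 55.8% of all genes called. With all libraries their log2 fold changes were 0.17 (-0.10 to 0.44, adjusted p = 0.303) and 0.06 (-0.39 to 0.52, adjusted p = 0.843).

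Per kilobase of exon, which puts the levels of different genes on 1 scale, Ctnnb1 led in all groups. Its mean was 9987 ± 727 normalised counts per kilobase in female smoke and 9924 ± 1920 in female air, and 8704 ± 690 in male smoke and 8656 ± 371 in male air (SD, n = 6 each). Cdh1 came next at 4059 ± 235 in female smoke and 4487 ± 651 in female air, and 4441 ± 480 in male smoke and 4692 ± 297 in male air, followed by Ctnna1 and then Ctnnd1 in each group. In female air and in male smoke the ranges of Cdh1 and Ctnna1 overlapped, but within each library of the 4 groups Cdh1 was the higher of the pair. In female cells Nectin4, Nectin1, Nectin2, Cdh3, Cdh26 and Nectin3 followed in that order, and the ranges of neighbours overlapped except Nectin1 over Nectin2 in both groups, Cdh3 over Cdh26 in female smoke and Cdh26 over Nectin3 in female air. Within libraries this order held in 5 or 6 of the 6 inserts for each pair, apart from Nectin2 over Cdh3 and Cdh3 over Cdh26 in female air, at 3 of 6 each. In male cells the order was Nectin1, Nectin2, Cdh3, Nectin4, Nectin3 and Cdh26, in which Nectin1 overlapped Nectin2 and Nectin2 overlapped Cdh3 in both groups, and Cdh3 overlapped Nectin4 in male smoke. Within male libraries it held in 4 to 6 of the 6 inserts, apart from Nectin2 over Cdh3 in male air, at 2 of 6. Nectin3 was the lowest member in female cells, at 5.92 ± 3.12 per kilobase in female smoke and 16.9 ± 6.84 in female air, and Cdh26 in male cells, at 4.15 ± 2.47 in male smoke and 14.1 ± 6.61 in male air. Cdh1 made up most of the cadherin sum per kilobase, from 80.5% to 92.6% over all libraries.

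The make-up of the nectins differed between female and male cells. Nectin4 made up 47.5 ± 6.28% of the nectin sum per kilobase in female smoke and 47.1 ± 7.52% in female air (SD, n = 6 each). Its share was 20.9 ± 2.77% in male smoke and 21.1 ± 0.42% in male air. In male cells Nectin1 and Nectin2 held most of the sum, with 39.9 ± 5.42% and 37.3 ± 4.87% in male smoke, and 37.8 ± 1.88% and 33.4 ± 1.43% in male air. The share of Nectin3 was 0.195 ± 0.104% in female smoke and 0.704 ± 0.421% in female air, and 1.94 ± 0.546% in male smoke and 7.69 ± 1.27% in male air. In the plot of nectin levels per kilobase, the Nectin3 layer is widest in male air.

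**Figure D4:**
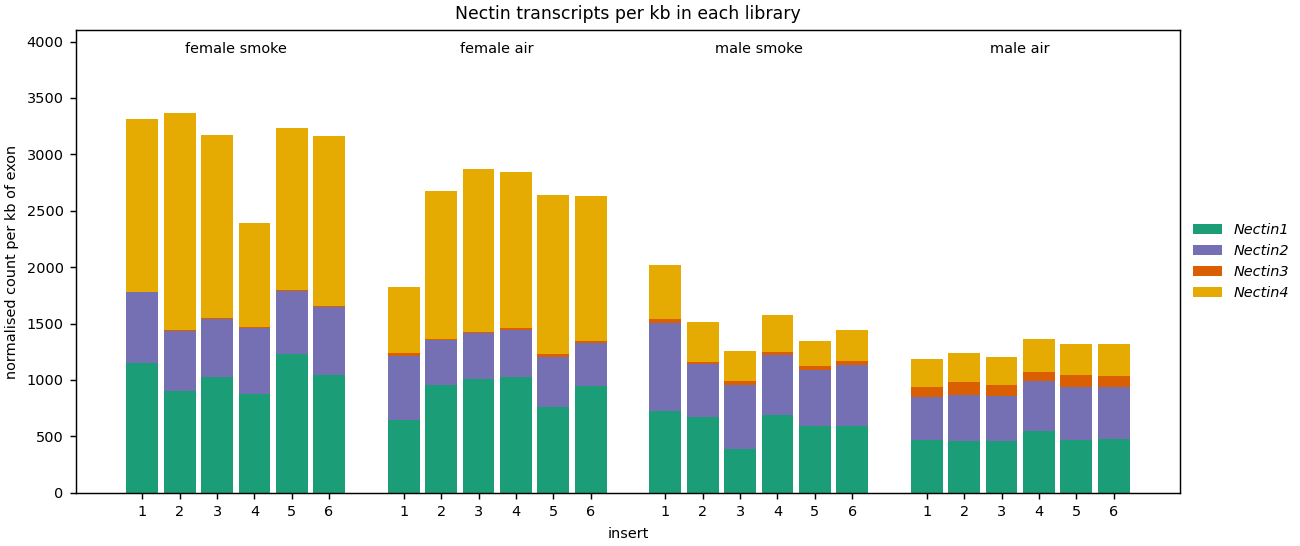
Nectin1 to Nectin4 as normalised counts per kilobase of exon (vertical axis from 0), stacked for each insert of the 4 groups. The stacks sum to 2395 to 3363 in female smoke and 1823 to 2869 in female air, against 1256 to 2019 in male smoke and 1188 to 1363 in male air, and the Nectin4 layer is the widest in female inserts other than air insert 1, where Nectin1 is wider.

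Further genes of the junction were read from lists of related genes, whose counts are over all 24 libraries unless stated. With all libraries 15.5% of all genes rose and 19.3% fell in female cells, and 9.76% rose and 12.2% fell in male cells. Leaving out the 2 length-biased libraries, 45.7% of all genes were called in either direction in female cells and 47.2% in male cells. Of 9 other cadherins tested, 0 rose and 2 fell in female cells, and 0 rose and 1 fell in male cells. With those 2 libraries left out 1 rose and 3 fell in each sex. Cdh2, N-cadherin of mesenchymal and neural cells, fell by 2.50 ± 0.48 (SE) in female cells and by 1.57 ± 0.48 in male cells on the log2 scale (adjusted p = 0.000578 and 0.0229). Its level was low, with 0 to 20.9 normalised counts in female smoke against 27.2 to 63.0 in female air. In male smoke it had 8.10 to 25.6, against 33.6 to 54.9 in male air. Cdh6 fell by 2.77 ± 0.60 in female cells (adjusted p = 0.00138), with 211 to 912 normalised counts in female smoke against 815 to 11195 in female air. The fibroblast gene list moved with them: both tested genes of its 8 fell in each sex, the sum was 22.8 to 159.5 normalised counts in female smoke against 291 to 1509 in female air, and 29.7 to 97.0 in male smoke against 169 to 429.6 in male air. Lum, one of them, was at 0 throughout both smoke groups and reached at most 1.52 in female air and 2.21 in male air, and the part of such cells in the fall of Cdh2 was not tested.

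Of 6 other catenin family genes, 2 fell in female cells and 1 in male cells, and 0 rose. With the 2 length-biased libraries left out 4 fell in female cells and 3 in male cells, and 0 rose. Ctnnd2 fell by 1.62 ± 0.31 and Arvcf by 0.59 ± 0.11 in female cells, and Pkp4 fell by 0.57 ± 0.12 in male cells, all members of the p120-catenin family (adjusted p = 0.000496, 0.000433 and 0.00208). Jup, plakoglobin, the gamma-catenin shared with desmosomes, had log2 fold changes of 0.27 (-0.06 to 0.60, adjusted p = 0.201) in female cells and 0.06 (-0.27 to 0.40, adjusted p = 0.817) in male cells. Of 4 nectin-like genes, 2 fell and 0 rose in female cells, and 1 fell and 1 rose in male cells. Pvr, the poliovirus receptor homologue that binds Nectin3, rose by 1.03 ± 0.31 in male cells (adjusted p = 0.0182) and had a log2 fold change of 0.76 ± 0.31 in female cells (adjusted p = 0.0576). Cadm2 fell by 2.21 ± 0.49 in female cells and by 2.11 ± 0.49 in male cells, with at most 38.7 normalised counts in any library, and Cadm1 fell by 0.88 ± 0.15 in female cells.

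Of 22 genes that link the junction to actin or microtubules, 6 rose and 1 fell in female cells, and 1 rose and 2 fell in male cells. Plekha7, which binds p120-catenin, rose by 1.07 ± 0.20 in female cells and 0.74 ± 0.20 in male cells (adjusted p = 0.000456 and 0.0109). Lmo7, a partner of afadin, rose by 0.85 ± 0.24 in female cells, and its log2 fold change of -0.26 in male cells did not pass. Afdn, which encodes afadin, the actin linker of all nectins, had log2 fold changes of 0.22 (-0.24 to 0.69) and 0.0020 (-0.47 to 0.47), and Vcl, vinculin, 0.23 (-0.20 to 0.67) and 0.25 (-0.19 to 0.69), in female and male cells. The list's median was 0.22 in female cells and -0.0080 in male cells. With the 2 length-biased libraries left out, 5 rose and 5 fell in female cells, with a median of 0.065, and 3 rose and 3 fell in male cells.

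Of 17 tested regulators of cadherins, 5 rose and 1 fell in female cells, and 5 rose and 2 fell in male cells. Leaving out the 2 length-biased libraries, 5 rose and 2 fell in female cells, and 5 rose and 5 fell in male cells. Grhl3, an epithelial transcription factor of barrier formation, rose by 1.33 ± 0.23 in female cells and 1.28 ± 0.23 in male cells (adjusted p = 0.00022 and 0.000401). Ovol1, a repressor of Zeb genes, rose by 1.01 ± 0.16 and 0.53 ± 0.16, and Elf3, an epithelial ETS factor, by 0.95 ± 0.17 and 0.72 ± 0.17. Grhl2, an activator of Cdh1, had log2 fold changes of -0.05 (-0.38 to 0.28) and -0.06 (-0.38 to 0.27), and Snai2, a repressor of Cdh1 that basal cells express, 0.32 (adjusted p = 0.0684) and 0.13 (adjusted p = 0.519). The repressors Snai1, Zeb1 and Zeb2 were below the level tested, with at most 15.7, 13.8 and 7.41 normalised counts in any library. Grhl1, named after its values were seen, was the 1 gene of these pathway lists whose smoke responses differed between the sexes with all libraries, by 0.87 ± 0.14 (adjusted p = 0.00298): it rose by 0.40 in female cells and fell by 0.48 in male cells. When the 2 length-biased libraries were left out the responses differed for 3 of the linkers, 2 regulators, 3 genes of the Wnt list and 1 nectin-like gene. Over all genes the responses differed for 6.20% there, against 1.03% with all libraries. Grhl1 differed by 0.89 without the 2.

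Of 16 tested genes of the beta-catenin destruction complex and its Wnt targets, 5 rose and 4 fell in female cells, and 3 rose and 2 fell in male cells, with medians of -0.02 and 0.09. Leaving out the 2 length-biased libraries, 6 rose and 3 fell in female cells, and 6 rose and 2 fell in male cells. Myc rose by 1.41 ± 0.17 in female cells and 0.85 ± 0.17 in male cells (adjusted p = 7.65e-06 and 0.00132). In female cells Notum, an enzyme that inactivates Wnt proteins, rose by 1.64 ± 0.39, and Lgr5, an R-spondin receptor, fell by 2.12 ± 0.45. Both were low there. Notum had 17.7 to 67.3 normalised counts in female smoke against 8.72 to 39.6 in female air, and Lgr5 0 to 5.99 against 4.56 to 28.7. Lgr5 averaged 31.9 in male smoke and 52.6 in male air. Axin2, a direct beta-catenin target, rose by 0.75 ± 0.23 in male cells (adjusted p = 0.0221) and had -0.42 ± 0.23 in female cells (adjusted p = 0.161). Lef1 was not tested, with at most 1.52 normalised counts in any library.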

How the data were processed

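The authors deposited a signal, read counts per gene scaled library by library with DESeq2's size factors and not scaled for gene length, per the files' values and the processing notes. In 23 libraries 100% of the values checked, which left out zeros and the highest counts, were whole reads within 0.01 read. Male smoke insert 5 was left out of count tests. Tools named in the submitters' processing notes were HTSeq, DESeq2, Trimmomatic 0.38.0 and FastQC 0.11.9, with the builds mm10 and GRCm38. Neither aligner nor strand setting is given there. The authors' tables hold, per the file headers, log2 fold changes and adjusted p-values, whose sign was turned here to smoke over air and female over male. Positions, a unit classed as other, came from the deposited mm10 annotation, and exon lengths are the union of each gene's exons.

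Genes with a mean of at least 10 were tested on log2(normalised count + 1) with limma 3.58.1 in R 4.3.3 (eBayes with trend, 24 libraries, 1 term per group, two-sided, Benjamini-Hochberg over 13549 genes). The added 1 shrinks changes of low genes, but an insert without reads can enlarge them. For Cdh26 in female smoke the log2 fold change was -4.02 on this scale and -2.73 with edgeR and with DESeq2. Alternatives were other scalings, pseudocounts, filters, weights and library subsets, a replicate block, edgeR 4.0.16 and DESeq2 1.42.0. The members and lists were chosen with earlier results of these data known. All 10 members are named, with up to 3 called genes per list of largest fold change in either smoke comparison and 12 others named whatever they did, apart from 1 gene that is not reported here. The 5 most correlated genes (mean of at least 50, predicted genes left out) are given for members called with a fold change of at least 1 on the log2 scale. The cell type lists, of 6 to 12 markers, cover ciliated, basal, secretory, squamous, fibroblast, leukocyte and endothelial cells. Insert numbers did not pair the samples. The script was tested on simulated data.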

Additional observations from a re-analysis of the deposited data

Results flagged for a closer look

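Of the 40 groups of 6 inserts looked at (10 genes in 4 groups), 7 had 1 insert set far apart from the other 5. Chance alone sets apart about 1 group in 20 where groups are independent and normally spread. These groups are not independent, since the 10 genes share the same libraries. Female air insert 1, which followed transcript length, was the insert in 4 of the 7. Its Ctnnb1 was 22523 normalised counts, against 36201 to 42006 in the other female air inserts, its Ctnnd1 3241 against 9922 to 12665, its Nectin4 2058 against 4479.9 to 5059, and its Nectin2 was high, at 1952 against 1332 to 1536. Male smoke insert 1 was high in Cdh3, at 3169 against 1534 to 1947, and in Nectin2, at 2686 against 1622 to 1960.3. Male air insert 4 was high in Nectin1, at 3096 against 2591 to 2727.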

How the results depend on the processing

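The 9 member differences that passed the test kept their direction under all 40 alternatives and passed in all of them when 1 library was left out; the 5 losses came with inserts 1 to 3 or inserts 4 to 6 alone. Members called fell to 0 in female cells with inserts 1 to 3 alone. In male cells they were 5 with array quality weights, 1 with inserts 4 to 6 alone, 4 with only the 12 libraries compared and 5 without female air insert 1 and female smoke insert 4. Over all genes, array quality weights called 7709 in female smoke against air, 6677 in male smoke against air, 2420 in the interaction and 9490 in female against male air, beside 4713, 2979, 140 and 5282. Inserts 1 to 3 alone called 656 in female smoke, 40 in the interaction and 2859 between the sexes in air, and inserts 4 to 6 alone 931 in male smoke and 637 in the interaction. The 12 libraries compared alone gave 2857 in female and 6148 in male smoke. Without female air insert 1 and female smoke insert 4 the counts were 6398 in male smoke and 840 in the interaction, which was 506 with DESeq2 and 212 with quantile scaling. Leaving out 1 library gave 75 to 431 in the interaction (431 without female air insert 1, 246 without female smoke insert 4) and 2110 to 4596 in male smoke (4596 without female air insert 1). The cause was not tested.

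Log2 fold changes that turned their sign all belonged to differences that did not pass. With inserts 1 to 3 alone Cdh1 was 0.11 in female and 0.050 in male smoke, Ctnnb1 -0.017 in male smoke, Ctnnd1 -0.27 between the sexes in air, and the interaction 0.14 for Cdh26 and -0.28 for Nectin2. The Cdh26 interaction was -4.57 with inserts 4 to 6 alone, which include female smoke insert 4. The female smoke value of Cdh26 was -2.81 with inserts 1 to 3 alone and -5.23 with inserts 4 to 6 alone. With inserts 4 to 6 alone, female smoke gave -0.058 for Cdh3, -0.12 for Ctnna1, -0.19 for Ctnnb1, -0.21 for Ctnnd1 and -0.11 for Nectin4, and male smoke -0.14 for Ctnna1 and -0.056 for Nectin4. Array quality weights gave, in female smoke, -0.17 for Cdh3, -0.038 for Ctnna1, -0.11 for Ctnnb1 and -0.020 for Ctnnd1. Without the 2 libraries named above, female smoke gave -0.10 for Cdh3 and -0.076 for Ctnnb1. Quantile scaling gave -0.0095 for Ctnna1 and -0.00047 for Ctnnb1 in female smoke, -0.010 for Ctnnb1 in male smoke, -0.057 for Ctnnb1 and -0.014 for Ctnnd1 in air, and -0.016 for the Nectin2 interaction. Scaling by library total gave -0.011 for Ctnnb1 in male smoke, -0.072 for Ctnnd1 in air and -0.016 for the Nectin2 interaction. The Nectin2 interaction was -0.064 with DESeq2 and -0.086 with edgeR, which gave -0.010 for Ctnnb1 in female smoke. Leaving out 1 library gave -0.0036 to 0.35 for Cdh3, -0.096 to 0.084 for Ctnnb1 and -0.055 to 0.34 for Ctnnd1 in female smoke, -0.032 to 0.025 for Ctnnb1 in male smoke, -0.026 to 0.37 for Ctnnd1 in air, and -0.049 to 0.097 and -0.019 to 0.49 for the interactions of Nectin2 and Nectin3. Scaling by library total moved the median of all genes between the sexes in air by -0.13, and the share of called genes that were higher in female air was 38.1% against 51.4%.

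Same-numbered inserts deviated together by -0.206 to 0.367 in female and -0.242 to 0.124 in male cells, so the numbers were not taken as pairs. With the insert number as a replicate block 3 and 2 members were called in female and male smoke, the same counts, and 4534 and 2798 genes.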
